A study of Mus musculus with 12 samples.

Results

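The genes examined here encode the nuclear-encoded subunits of the mitochondrial respiratory chain and ATP synthase. They were taken by name from the deposited gene table, as symbols that begin with Ndufa, Ndufb, Ndufc, Ndufs or Ndufv and a digit, the 4 Sdh genes, and symbols that begin with Uqcr, Cox4 to Cox8 or Atp5. A mean of 10 or more counts over the 12 samples was also required. Of 17922 genes in the table, 84 matched by name and 82 passed the count minimum. By name, 38 belong to complex I, 4 to complex II, 8 to complex III, 15 to complex IV and 17 to complex V. Both genes left out were barely detected, Cox7a1 with a mean count of 7.92 and Ndufa11b with 0.29. Just inside the minimum were Cox8b with a mean count of 12.50 and Cox6b2 with 51.25. The rule follows names: Ndufa4 is now assigned to complex IV, Ndufa4l2 and Cox7a2l are relatives of subunits, and Atp5s is listed by RefSeq as Dmac2l. Cyc1 and Ndufab1, which are also subunits, do not match the rule.

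RNA was sequenced from primary rib cartilage cells (chondrocytes) of mice, freed by overnight collagenase digestion and then cultured for 1 day. The 12 samples form 4 groups of 3. LDH knockouts (Col2-Cre, Ldha fl/fl, Ldhb +/-) and their controls came from mice at postnatal day 5, and Acly knockouts (Col2-Cre, Acly fl/fl) and their controls from embryos at E18.5. All were of a mixed strain in which C57BL/6 dominates, and each knockout had littermate controls, whose own alleles the labels do not give. Col2-Cre is a recombinase driven by the type II collagen promoter, so cells in the preparation that never made type II collagen keep the floxed gene. Lactate dehydrogenase (LDH) regenerates NAD+ for glycolysis, and ATP citrate lyase (Acly) makes cytoplasmic acetyl-CoA from citrate.

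Complexes I and II pass electrons from NADH and succinate to ubiquinone, complex III passes them to cytochrome c, complex IV passes them to oxygen, and complex V uses the proton gradient to make ATP. Most subunits are encoded in the nucleus and a few core ones in mitochondrial DNA, and several complex IV subunits exist as common and tissue-specific isoforms. Growth plate chondrocytes live in poorly vascularized tissue and are known for their reliance on glycolysis. Of 26 spellings tried for mitochondrially encoded subunits, 0 matched the table, so those genes were not analysed here.

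Promoter sequence was examined because many of these genes are known targets of the nuclear respiratory factor NRF1. RefSeq promoter entries (assembly GRCm38.p6) were matched for 66 of the 82 genes, in 71 entries, and the 250 bases upstream of the start site were searched on both strands. The NRF1 core, spelled as GCGCA followed by NGCGC, occurred in 14 of 71 entries (19.7%), against 3.7% of all promoters and 7.2% of promoters of the genes tested. The ETS core CCGGAAG was found in 16.9% of the entries, against 6.9% and 12.2%. A match describes these letters only. One window is shown from each of 5 genes described below, with the NRF1 core in capitals.
Cox6a1, chr5:115349101-115349130, minus strand: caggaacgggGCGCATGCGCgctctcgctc
Ndufa11, chr17:56717692-56717721, plus strand: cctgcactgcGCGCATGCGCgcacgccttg
Ndufs5, chr4:123718265-123718294, minus strand: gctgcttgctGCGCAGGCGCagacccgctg
Sdhd, chr9:50603909-50603938, minus strand: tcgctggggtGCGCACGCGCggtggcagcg
Atp5g2, chr15:102671070-102671099, minus strand: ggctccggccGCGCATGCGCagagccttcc

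The 250 bases upstream of 2 pairs of common and tissue-specific complex IV isoforms are shown. They were chosen because, with TMM scaling, the common form was called lower and the other form higher in Acly than in LDH controls. Without scaling this held for all but Cox8a. Cox8b passed the filters on low counts only through the Acly samples, so its call is no independent support. Capitals mark the ETS core on its reverse strand (CTTCCGG, starting 28 bases before the start site) in Cox6b1 and an E-box (CAGCTG, starting 19 bases before it) in Cox8b. The Cox6b1 window holds 14 CpG dinucleotides and that of Cox6b2 holds 8. Cox8a has 11 and Cox8b has 1. The median was 14 over the member entries and 15 over promoters of the genes tested.
Cox6b1, chr7:30626115-30626364, minus strand: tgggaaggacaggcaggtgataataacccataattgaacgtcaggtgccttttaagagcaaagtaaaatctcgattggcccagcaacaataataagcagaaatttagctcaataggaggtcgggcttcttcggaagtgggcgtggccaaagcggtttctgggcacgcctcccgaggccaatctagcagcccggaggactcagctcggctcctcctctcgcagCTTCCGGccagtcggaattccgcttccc
Cox6b2, chr7:4753095-4753344, minus strand: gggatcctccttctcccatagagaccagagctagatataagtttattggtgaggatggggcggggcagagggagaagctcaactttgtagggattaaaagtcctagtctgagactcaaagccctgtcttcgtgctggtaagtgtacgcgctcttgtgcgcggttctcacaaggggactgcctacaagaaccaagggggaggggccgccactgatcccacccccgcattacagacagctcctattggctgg
Cox8a, chr19:7217617-7217866, minus strand: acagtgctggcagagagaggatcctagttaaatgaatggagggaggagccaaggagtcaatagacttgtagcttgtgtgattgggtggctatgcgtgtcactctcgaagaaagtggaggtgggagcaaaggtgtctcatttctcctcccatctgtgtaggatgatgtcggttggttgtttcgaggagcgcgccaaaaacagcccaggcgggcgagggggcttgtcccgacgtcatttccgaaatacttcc
Cox8b, chr7:140900447-140900696, minus strand: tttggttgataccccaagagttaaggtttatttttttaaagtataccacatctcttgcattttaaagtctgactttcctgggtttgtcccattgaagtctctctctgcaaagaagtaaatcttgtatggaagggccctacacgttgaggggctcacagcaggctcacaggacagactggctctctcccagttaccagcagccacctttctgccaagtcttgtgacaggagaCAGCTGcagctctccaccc

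Each library held 26362407 to 28154143 counts, and 3 counts, used as the floor, equal 0.107 to 0.114 CPM (counts scaled to library size). Ldha read 79.3 to 92.1 CPM in LDH knockouts against 791.5 to 893.9 in controls, and Acly 52.5 to 87.0 CPM in Acly knockouts against 192 to 202. Ldhb, of which 1 allele was deleted, was at 14.2 to 16.4 CPM in LDH knockouts and 11.3 to 12.3 in controls (log2 fold change 0.37, edgeR adjusted p = 0.115), so its level gives no check of that allele. Acly knockout replicate 2 stood apart from the other 5 libraries of its set on the first principal component (-34.8 against -72.6 to -63.6). Summed Y-linked signal was at most 0.0388 CPM in LDH knockouts and 0.632 to 106 CPM in their controls. Chondrocyte markers summed to 8637 to 29840 CPM over all libraries, with all 9 listed genes found in the table. Their sum was 19860 to 29840 CPM in LDH knockouts against 10890 to 12630 in controls (5 of 8 tested called higher) and 14310 to 16450 against 8637 to 9431 in the Acly set (2 of 9 called higher). Skeletal muscle markers were present too, as described below.

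In these chondrocytes the subunit genes were abundant. Of 82 genes, 66 had a mean level above the 90th percentile of all genes in TPM, a scale that accounts for transcript length and library size and is used here to compare levels between genes. Summed over the 82 genes, the level was 20840 ± 447 TPM (SD, n = 3, range 20560 to 21350) with LDH deleted and 20580 ± 506 (20100 to 21110) in its controls, which overlapped. It was 21240 ± 332 TPM (20870 to 21510) with Acly deleted and 20150 ± 324 (19830 to 20480) in its controls, which did not overlap.

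Within each complex the highest and lowest genes differed widely in mean TPM. In complex I, Ndufa3, a small accessory subunit of the membrane arm, was highest at 400.9 TPM, and Ndufs1, the large iron-sulfur subunit, stood at 34.0. Ndufa4l2 was lowest at 22.8. In complex II, Sdhc, a membrane anchor, was at 163 TPM and Sdha, the flavoprotein that oxidizes succinate, at 83.9. Complex III ran from Uqcr10, a small subunit, at 455 TPM to Uqcrfs1, the Rieske iron-sulfur protein, at 80.1. The highest genes of all were Atp5b, the catalytic beta subunit of ATP synthase, at 1060 TPM, and Cox6a1, a complex IV subunit, at 1006. At the other end were Atp5s at 9.08 TPM, Cox6b2 at 8.64 and Cox8b at 2.995. The coefficient of variation over the 12 samples had a median of 9.22% and exceeded 20% in 6 genes, which were Ndufa4l2, Cox8b, Cox6b2, Cox4i2, Atp5e and Cox6a2 (named after their values were seen). The lowest was that of Atp5b, 3.57%. These values were not set beside those of all genes.

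In LDH knockouts this gene group was close to the level of the controls in the main fit. With edgeR, 0 of 81 genes tested passed an adjusted p of 0.05, against 2.49% of all genes tested, and Cox8b was too low to test. Without adjustment, 9 genes had a p under 0.05, against 19.6% of all genes, and 8 of them were higher in the knockout, against 9.79%. Without LDH control replicate 3, 18 members had a p under 0.05, against 2754 of 13518 genes tested. Without LDH knockout replicate 3 there were 15, against 3333 of 13509. DESeq2 called 4 genes, Cox4i2, Cox6a1, Ndufa3 and Uqcrc1, all higher. The median log2 fold change was 0.05 (all genes 0.0051), with 53 of 81 above 0 (all genes 51%). In a fit with a Y-linked covariate it was -0.14, with 20 of 81 above 0 (all genes 49.6%). Y-linked signal was at most 0.0388 CPM in LDH knockouts, and among controls only replicate 3 was also low (0.632 CPM). The covariate thus largely coincides with the deletion, and this fit separates them poorly. The 95% interval of the main fit lay within 0.5 on the log2 scale either way for 73 of 81 genes, against 57.9% of all genes. For most members a change of that size thus lies outside the interval of that fit. The main fit takes no account of the Y-linked difference or of the mix of cell types. Groups did not overlap in 12 genes that were higher (11.9% of all genes) and 3 that were lower (12.50%).

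**Figure D1:**
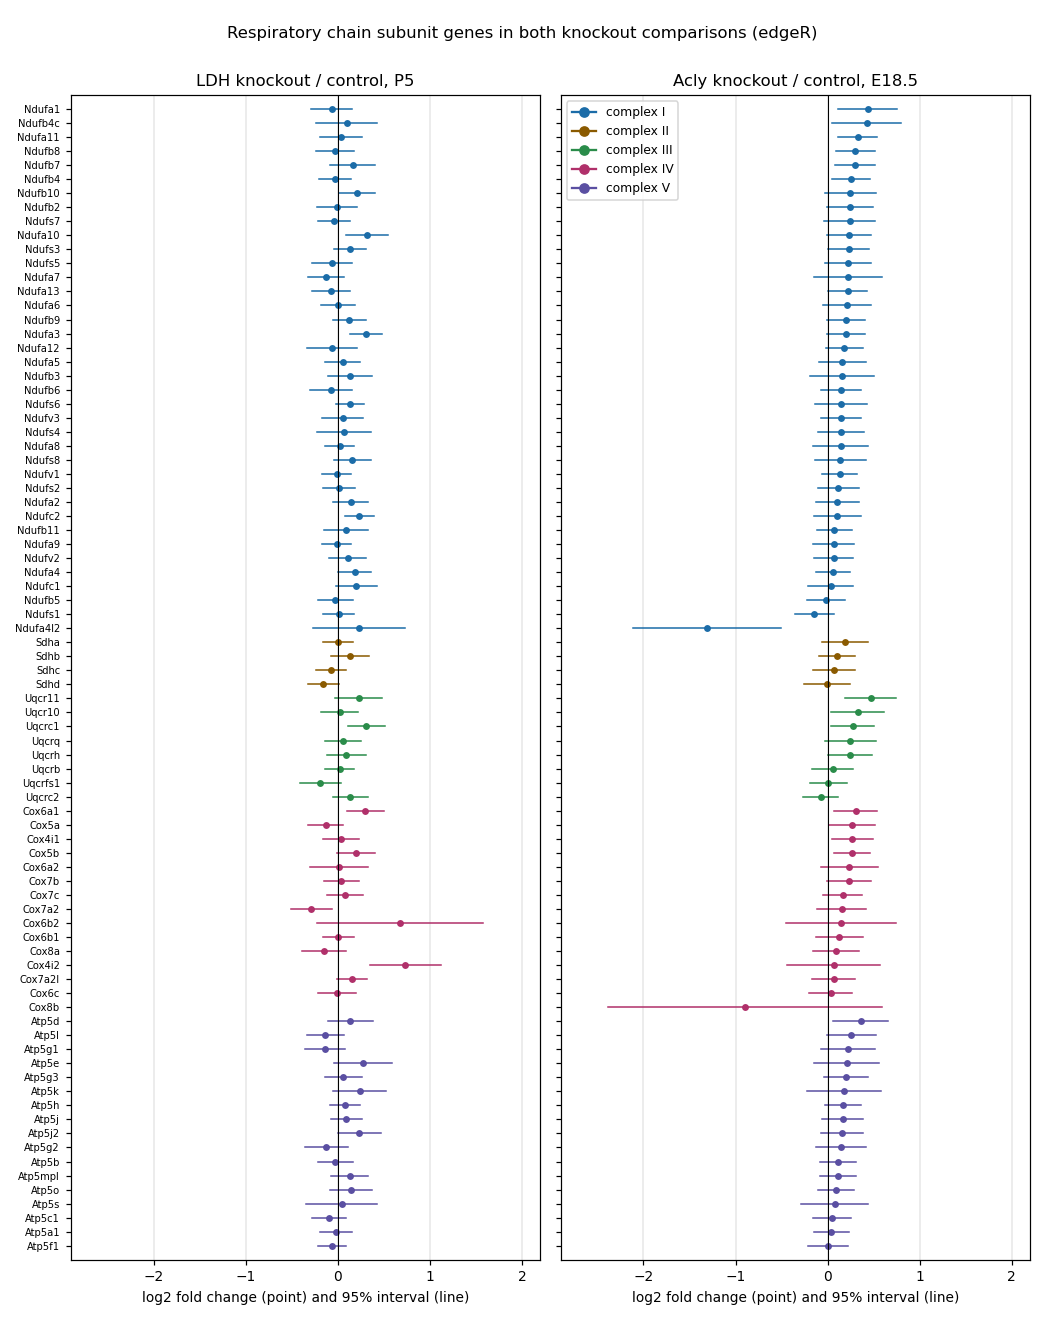
Points are edgeR log2 fold changes and lines their 95% intervals (x axis) for each subunit gene (y axis), LDH knockout against control at postnatal day 5 on the left and Acly knockout against control at E18.5 on the right, coloured by complex. On the left most points lie close to 0, with Cox4i2 at 0.73, and on the right 76 of 82 lie above 0, with Ndufa4l2 at -1.31; no gene passed an adjusted p of 0.05 in either panel.

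In complex I, 5 of 38 genes had an unadjusted p under 0.05 in the LDH comparison, all higher in the knockout. Over all genes tested, 19.6% had such a p and 9.79% had it as higher. Ndufa3 levels were 63.5, 59.9 and 56.1 CPM with LDH deleted (replicates 1, 2 and 3) against 49.97, 47.7 and 47.4 in the controls. Every knockout was above every control, and the log2 fold change was 0.31 ± 0.08 (SE; edgeR adjusted p = 0.0701). Ndufc2, another accessory subunit, was 53.0, 53.3 and 55.7 CPM against 46.8, 45.3 and 45.9, also without overlap (0.23 ± 0.07, adjusted p = 0.114). The NADH-binding subunit Ndufv1 and the iron-sulfur subunit Ndufs1 had log2 fold changes of -0.01 and 0.01, with 95% intervals of -0.17 to 0.14 and -0.16 to 0.17.

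The 4 complex II genes had LDH log2 fold changes from -0.16 to 0.13. Sdhd, a membrane anchor, was 66.4, 70.9 and 73.7 CPM in LDH knockouts and 75.5, 79.4 and 80.6 in controls. Its knockout libraries all lay below the controls, and its interval ran from -0.32 to 0.01. Sdhb, the iron-sulfur subunit, overlapped between groups (log2 fold change 0.13). In complex III, Uqcrc1, a core protein, was 165.8, 159.3 and 146.8 CPM in knockouts against 125.5, 115.2 and 139.9 in controls. These groups did not overlap (0.31 ± 0.09, edgeR adjusted p = 0.1), and with GC and length offsets Uqcrc1 passed the test. The Rieske protein Uqcrfs1 had a log2 fold change of -0.19, with overlap.

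Complex IV held the largest LDH difference. Cox4i2, an alternative form of subunit 4 known from lung and from hypoxic cells, was 15.5, 19.0 and 20.95 CPM in LDH knockouts and 13.5, 8.83 and 11 CPM in controls. The groups did not overlap, and the log2 fold change was 0.73 ± 0.17 (edgeR adjusted p = 0.0565). The call was made by DESeq2 and without the filter on low counts, and the adjusted p ranged from 0.0017 to 0.476 over the alternatives. Cox4i2 took 10.99% ± 1.94 (SD, n = 3) of the summed Cox4i1 and Cox4i2 TPM in LDH knockouts and 7.01% ± 1.11 in controls, ranges that did not overlap. Cox4i2 lies over Bcl2l1 in RefSeq, the use of strand in counting is not given in the sources used here, and Bcl2l1 had a log2 fold change of -0.14 (adjusted p = 0.5). Cox6a1 was 259.3, 264.6 and 262.7 CPM against 202.2, 199.3 and 239.1 (0.30 ± 0.09, adjusted p = 0.113), again without overlap. Cox7a2, a small subunit, was lower, 57.5, 62.6 and 71.5 against 76.6, 72.4 and 85.2 CPM (-0.29 ± 0.10, adjusted p = 0.151).

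In complex V, 0 of 17 genes reached an unadjusted p of 0.05 in the LDH comparison, against 19.6% of all genes tested. Atp5j2, the f subunit, was 67.8, 65.0 and 53.2 CPM in knockouts and 52.3, 48.6 and 57.2 in controls, with overlap (log2 fold change 0.24, 95% interval 0 to 0.47). Atp5e, the epsilon subunit, had a log2 fold change of 0.27, from -0.05 to 0.59. In the catalytic core Atp5a1 was at -0.02 and Atp5b at -0.03 (intervals -0.20 to 0.16 and -0.21 to 0.16). The LDH median over all members depended on single controls: it was -0.0003 without control replicate 2 and 0.10 without control replicate 3. Without knockout replicate 3, edgeR called 3 members (1068 of 13509 over all genes), Ndufa3 and Ndufa10 higher and Cox7a2 lower. Fat markers summed to 28.4 to 75.0 CPM in LDH knockouts and 9.77 to 10.7 in controls, with 5 of 7 tested called higher, and Ucp1, which defines brown fat, at 0 in all 3 knockouts. Bone-forming markers summed to 19.1 to 33.6 against 63.9 to 84.4 CPM (2 of 5 called lower). Of the fibroblast markers 1 of 6 was called lower, of the skeletal muscle markers 2 of 15 higher and of the pericyte markers 1 of 6 higher. Their part in these values, and that of the Y-linked difference, was not tested beyond a fit with a Y-linked covariate. In that fit the median was -0.14, but the covariate largely coincides with the deletion.

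In Acly knockouts most subunit genes had small positive log2 fold changes, and no single gene passed the test. edgeR called 0 of 82, against 0.136% of all genes tested, and DESeq2 called 1, Uqcr11. An unadjusted p under 0.05 was reached by 18 genes, 17 of them higher, where 15.8% of all genes reached that p and 7.26% did so as higher. The log2 fold change was above 0 for 76 of 82 genes (all genes 49.7%), with a median of 0.15 (all genes -0.0018). Groups did not overlap in 25 genes that were higher (10.7% of all genes) and in 0 that were lower (11.3%). For 57 of 82 genes the 95% interval lay within 0.5 either way (48.9% of all genes). The count of 18 depended on single libraries, as did the count over all genes, 2211 of 13973. It was 11 without Acly knockout replicate 2 (all genes 2151 of 14145). Without Acly control replicate 2 it was 5 (all genes 909 of 14118), and without Acly control replicate 3 it was 4 (1008 of 14158). Fibroblast markers summed to 1440 to 3710 CPM in Acly knockouts and 3984 to 4738 in controls (0 of 6 called, all 6 with a fitted value below 0), bone-forming markers to 100.8 to 147.3 against 153.9 to 180.3 (0 of 6 called) and leukocyte markers to 137.1 to 145.4 against 111.9 to 125.5 (0 of 6 called). Their part in the members' values was not tested.

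Per sample, the median log2 deviation of the members from the control mean was 0.11, 0.30 and 0.09 in the Acly knockouts (replicates 1, 2 and 3) and 0.08, -0.05 and -0.03 in controls. All knockouts were above all controls, but knockouts 1 and 3 exceeded control 1 by little, and the library that stands apart was the highest. Without that library the median log2 fold change was 0.10. In the LDH set the same deviations were 0.05, 0.06 and 0.02 in knockouts and -0.02, -0.08 and 0.09 in controls, which overlapped. The plot of per-sample medians shows the same order in complexes I, III, IV and V of the Acly set, whereas complex II overlapped, with knockouts at 0.0008 to 0.11 and controls at -0.03 to 0.07.

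**Figure D2:**
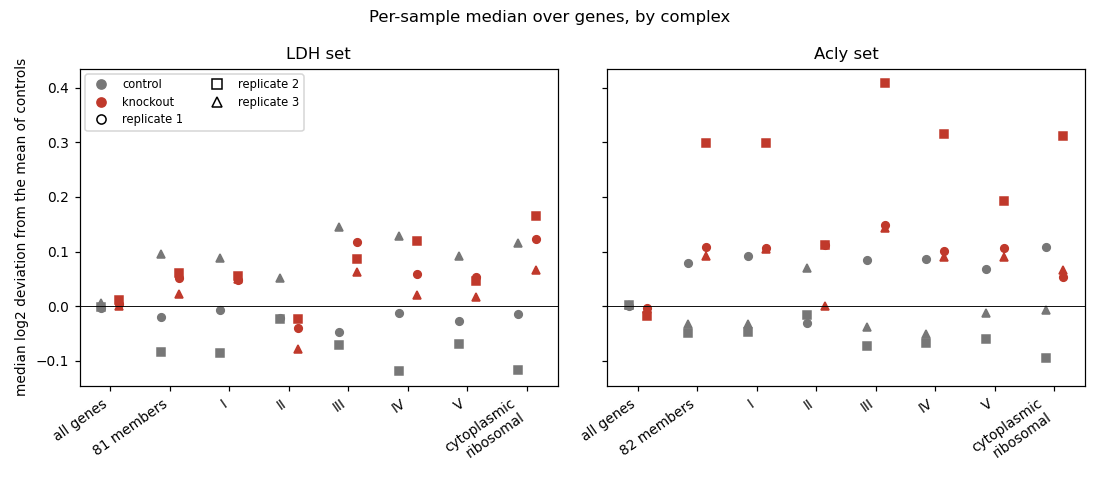
Each point is the median over genes (x axis, gene group) of the log2 deviation of 1 sample from the mean of its controls (y axis), grey for controls and red for knockouts, with replicate number as shape. In the Acly set the 3 knockouts lie above the 3 controls for the 82 members, from 0.09 to 0.30 against -0.05 to 0.08, with replicate 2 highest; in the LDH set they overlap.

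Complex III had the highest median in Acly knockouts, 0.25, against 0.16 in complex I, 0.09 in complex II, 0.15 in complex IV and 0.16 in complex V. Uqcr11, a small complex III subunit, was 66.0, 73.7 and 64.3 CPM in knockouts and 58.0, 45.3 and 44.0 in controls. Every knockout exceeded every control (log2 fold change 0.47 ± 0.12, 95% interval 0.19 to 0.75, edgeR adjusted p = 0.219). Uqcr10 was 90, 119.2 and 93.5 against 88.3, 75.1 and 78.2 CPM, with no overlap but a narrow gap (0.33 ± 0.12, adjusted p = 0.285). Uqcrfs1 was at 0.01 (interval -0.19 to 0.21).

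In complex I, the accessory subunit Ndufa11 was 90.9, 108.7 and 101.7 CPM in Acly knockouts and 82.6, 80.9 and 77.0 in controls, without overlap (0.33 ± 0.09, edgeR adjusted p = 0.236). Ndufa1, another accessory subunit, was 17.9, 21.4 and 16.1 against 15.01, 13.1 and 12.8 CPM (0.44 ± 0.14, adjusted p = 0.257). The catalytic subunits differed less: Ndufv1 had a log2 fold change of 0.13 and Ndufs1 of -0.15, with intervals of -0.06 to 0.32 and -0.36 to 0.06. In complex II, Sdha was at 0.19 and Sdhd at 0.00, and their groups overlapped.

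In complex IV, Cox6a1 was 257.0, 314.7 and 296.1 CPM in Acly knockouts and 253.4, 230.9 and 218.6 in controls. The lowest knockout stood just above the highest control (0.30 ± 0.10, edgeR adjusted p = 0.263). Cox5b, a zinc-binding subunit, was 169.1, 180.1 and 161.7 against 149.6, 137.4 and 139.0 CPM (0.26 ± 0.09, adjusted p = 0.258). Cox4i2, which leaned upward in LDH knockouts, was 13.8, 27.1 and 24.4 against 20.3, 22.8 and 19.1 CPM here, with overlap (0.07, interval -0.44 to 0.57). In complex V all 17 genes were above 0, from 0.00 to 0.36. Atp5d, the delta subunit, led with 348.3, 490.0 and 386.4 against 343.4, 307.2 and 303.8 CPM (0.36 ± 0.13, adjusted p = 0.273). Atp5l, the g subunit, was at 0.26, Atp5b at 0.11 (interval -0.08 to 0.31) and Atp5a1 at 0.04 (-0.15 to 0.23).

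Ndufa4l2, a relative of Ndufa4 known as a target of hypoxia-inducible factor, went the other way. It was 7.51, 8.45 and 16.4 CPM in Acly knockouts and 16.3, 26.2 and 37.9 in controls. The groups overlapped only in that knockout replicate 3 lay just above control replicate 1, and the log2 fold change was -1.31 ± 0.35 (95% interval -2.12 to -0.51, edgeR adjusted p = 0.222). Its share of the summed Ndufa4 and Ndufa4l2 TPM was 6.80% ± 3.02 (SD, n = 3) in knockouts and 15.6% ± 4.84 in controls. In the LDH set Ndufa4l2 was 2.43, 3.80 and 2.89 CPM in knockouts against 2.81, 2.30 and 2.67, with overlap. Common Ndufa4 had log2 fold changes of 0.06 and 0.19 in the Acly and LDH comparisons. Ndufa4l2 lies over Shmt2 in RefSeq, which had a log2 fold change of 0.23 in the Acly comparison (adjusted p = 0.35). Of the muscle markers, which summed to 225.8 to 467.2 CPM in Acly knockouts and 413.6 to 540.6 in controls, 0 of 16 passed the test and 15 had a fitted value below 0. Pericyte markers, a list added after values were seen, summed to 716.7 to 890.8 CPM in Acly knockouts and 651.8 to 707.6 in controls. Of these, 0 of 7 passed the test and 4 had a fitted value above 0. The part of muscle cells, pericytes or other cell types in the Ndufa4l2 value was not tested. In these bulk samples, fewer cells of a type and less RNA per cell cannot be told apart.

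The members are short genes, and over all genes tested the Acly log2 fold change varied with length and GC content. Their median effective length was 628 bases, against 2783 over genes tested, of which 2.42% were shorter than the members' median, and their median transcript GC content was 51.4% against 50.4%. Across 13836 genes Spearman's rho of the Acly log2 fold change was 0.50 with GC content and, across 13973, -0.31 with length, a description over genes that share the same 6 libraries. The same values were 0.08 and -0.09 in the LDH comparison. Among the shortest 10% of genes, the 64 members had a median Acly log2 fold change of 0.17 and the other genes one of 0.13, with 73.2% above 0. Cytoplasmic ribosomal protein genes, which are also short and abundant, had a median of 0.17, with 71 of 77 above 0, and per sample their knockouts and controls overlapped. With smooth GC and length offsets per library, the members' median was 0.053, with 56 of 82 above 0. By complex it was then 0.06, -0.01, 0.14, 0.03 and 0.05 for complexes I to V. With these offsets and without Acly knockout replicate 2, an alternative chosen after seeing the data, it was 0.09. In the LDH comparison the members' median with the offsets was 0.023, with 44 of 81 above 0 (all genes 51.4%). The plot by length and GC content shows the slope of the other genes beside the members.

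**Figure D3:**
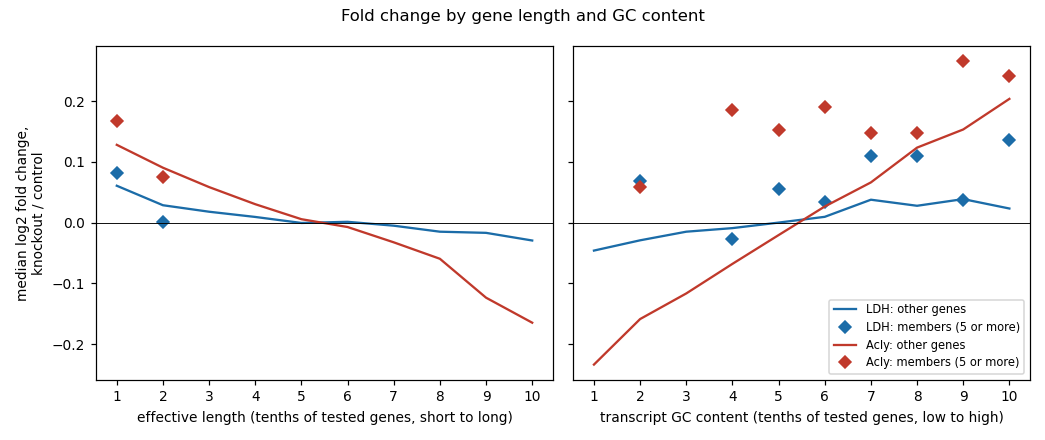
Lines give the median log2 fold change (y axis) of genes other than the members in 10 equal bins of effective length (left x axis) and transcript GC content (right x axis), and diamonds that of the members where a bin holds 5 or more of them, in blue for LDH and red for Acly. For Acly the line runs from 0.13 in the shortest bin to -0.16 in the longest, and from -0.23 at the lowest GC content to 0.20 at the highest; the members lie at 0.17 in the shortest bin.

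The trend differed between libraries of 1 group. Spearman's rho of a library's deviation with GC content was -0.12, 0.43 and 0.36 in the Acly knockouts (replicates 1, 2 and 3) and 0.08, -0.48 and -0.48 in controls. Members with the NRF1 core in their promoter (13 genes) had a median Acly log2 fold change of 0.17, and the 51 others with an entry had 0.17 too. In the LDH comparison these medians were 0.02 over 13 and 0.08 over 50 genes tested.

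The effects of both deletions on the members were then compared directly. With edgeR, 0 of 82 genes passed when the LDH effect was set against the Acly effect (0.161% of all genes tested), 9 had an unadjusted p under 0.05 (13% of all genes), and DESeq2 also called 0. The median difference, LDH minus Acly, was -0.08 on the log2 scale (all genes 0.03), and 26 of 82 were above 0 (54.2% of all genes). This median was -0.04 without Acly knockout replicate 2, -0.05 without Acly control replicate 2 or LDH control replicate 3, -0.15 without LDH control replicate 2 and -0.19 with a Y-linked covariate. In the LDH set that covariate largely coincides with the deletion. The 9 genes (1855 of 14251 over all genes) became 15 without Acly knockout replicate 1 (2619 of 14424). They became 5 without Acly control replicate 2 (1245 of 14398) or LDH control replicate 3 (1297 of 14423). They became 6 without Acly knockout replicate 2 (1572 of 14430) or LDH knockout replicate 1 (1529 of 14428) or 2 (1340 of 14419). Ndufa4l2 had the lowest p, with a difference of 1.55 ± 0.47 (adjusted p = 0.23). The upward lean in Acly knockouts was therefore not shown to differ from the LDH values for any gene, and age coincides with the gene deleted.

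By the number of genes called, the control groups differed more from each other than either knockout did from its controls. With TMM scaling, 39 of 82 genes passed the edgeR test between Acly controls at E18.5 and LDH controls at postnatal day 5, 33 lower and 6 higher in the embryonic cells, Cox8b among the latter. The background was high: 55% of all genes tested passed, 25.7% as lower and 29.4% as higher. Groups did not overlap in 37 genes that were lower (30.7% of all genes) and 11 that were higher (34.7%). The members' median log2 difference was -0.17 (all genes 0.02), while with total counts and no scaling it was 0.0084 (all genes 0.19), with 13 members lower and 19 higher. The members thus lay below the median of all genes on both scales, and the split of calls depended on the scaling, as it did over all genes (3660 lower and 4184 higher with TMM, 2091 and 5492 without scaling). All 6 higher calls and 13 of the 33 lower calls remained without scaling, and 0 turned the other way. Cox8b is counted among the 6, though it passed the filters on low counts only through the Acly samples. Without Acly control replicate 3, 25 members were called, against 7037 of 14420 genes tested. Age, line and any library batch coincide here and cannot be told apart. Y-linked signal was uneven within both control groups, and markers of other cell types differed between them, as given below. Their part was not tested.

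**Figure D4:**
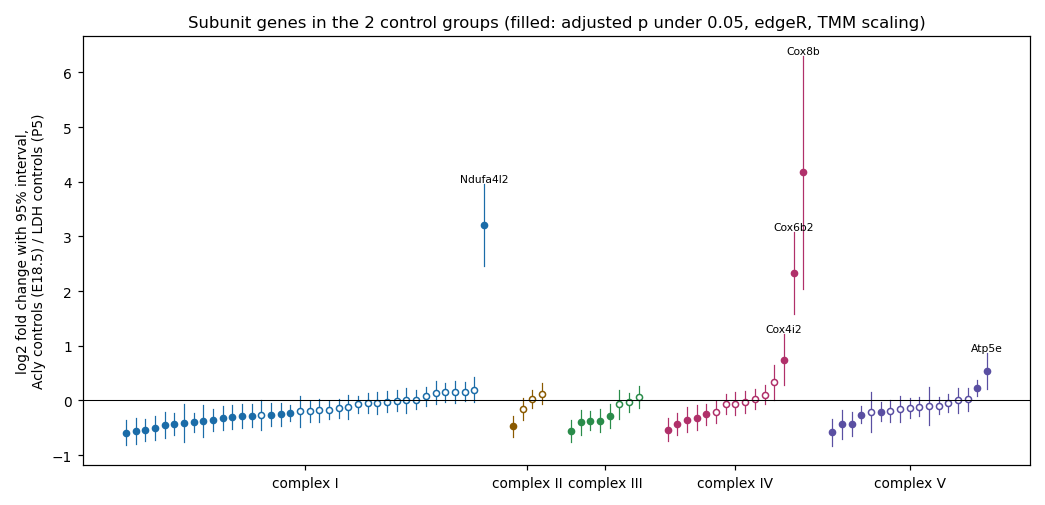
Each point is a subunit gene, ordered by value within its complex (x axis), with its edgeR log2 fold change and 95% interval between Acly and LDH controls under TMM scaling (y axis), filled where the adjusted p is under 0.05. Most filled points lie below 0, of which 13 of 33 keep their call without scaling, and Ndufa4l2, Cox6b2, Cox4i2 and Atp5e stand above; the value of Cox8b rests on 4 counts in the LDH controls.

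Among the genes called lower on both scales, complex I gave Ndufs5, an accessory subunit, at 44.3, 41.2 and 43.8 CPM in Acly controls and 65.8, 56.5 and 72.4 in LDH controls (levels scaled over all 12 libraries). These did not overlap, with a log2 difference of -0.59 ± 0.10 (edgeR adjusted p = 0.000365). Ndufa1 followed at -0.56. Sdhd was the complex II gene called, 56.8, 56.8 and 65.7 against 80.2, 84.1 and 84.7 CPM (-0.47 ± 0.09, adjusted p = 0.00061). Sdha, Sdhb and Sdhc were at -0.16, 0.12 and 0.02 and did not pass.

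In complex III the Rieske gene Uqcrfs1 was 45.1, 43.2 and 47.3 CPM in Acly controls and 64.8, 70.4 and 65.6 in LDH controls. The gap was wide relative to the spread (-0.57 ± 0.09, edgeR adjusted p = 0.00022). Uqcr10 was at -0.40 and lost its call without scaling. In complex IV, Cox5a, a subunit on the matrix side, was 69.0, 58.5 and 60.1 against 88.5, 85.3 and 98.3 CPM (-0.54 ± 0.10, adjusted p = 0.000405), and Cox6b1 was at -0.44.

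Complex V held a contrast within the c ring, whose subunit is encoded by Atp5g1, Atp5g2 and Atp5g3 with an identical mature protein. Atp5g1 was 205.3, 206.5 and 195.8 CPM in Acly controls and 289.8, 286.6 and 334.2 in LDH controls (-0.58 ± 0.11, edgeR adjusted p = 0.000699), while Atp5g2 and Atp5g3 were at -0.16 and -0.19 and did not pass. Atp5g1 made up 33.6% ± 1.17 (SD, n = 3) of the TPM of these genes in Acly controls and 40.2% ± 0.40 in LDH controls, a share that scaling does not affect. The knockouts of each set had similar shares, 34.4% ± 1.10 and 39.1% ± 1.11. Atp5e and Atp5h, the d subunit, were called higher, at 0.53 and 0.23. Atp5e lost its call without Acly control replicate 1 or LDH control replicate 2 (edgeR adjusted p = 0.0519 and 0.0566), and Atp5h without either of these or Acly control replicate 3 (0.0673, 0.14 and 0.058). Atp5d was at -0.44 and lost its call without scaling.

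Ndufa4l2, Cox6b2 and Cox4i2, all alternative isoforms, were called higher in the embryonic controls on both scales. Ndufa4l2 was 15.55, 24.84 and 35.94 CPM in Acly controls against 2.98, 2.43 and 2.80 in LDH controls, far apart (log2 difference 3.21 ± 0.35, edgeR adjusted p = 7.39e-06). Cox6b2, the testis form of a complex IV subunit, was 2.98, 3.20 and 2.31 against 0.560, 0.524 and 0.592 CPM (2.33 ± 0.35, adjusted p = 0.000104). Cox4i2 was 19.35, 21.64 and 18.15 against 14.32, 9.36 and 11.57 CPM (0.75 ± 0.22, adjusted p = 0.0104), a call lost without LDH control replicate 2 (adjusted p = 0.0698, edgeR). Cox8b, a heart and skeletal muscle form, had 47, 14 and 23 counts in Acly controls and 4, 0 and 0 in LDH controls. It passed the filters on low counts only through the Acly samples, so its call (adjusted p = 0.003) is no independent support and its counts stand as a description. Cox6a2, the muscle form of subunit 6a, was at 0.33 (adjusted p = 0.0745) with TMM and passed without scaling. Cox7a1, a muscle form below the count minimum, had 20, 8 and 9 counts against 6, 2 and 1.

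**Figure D5:**
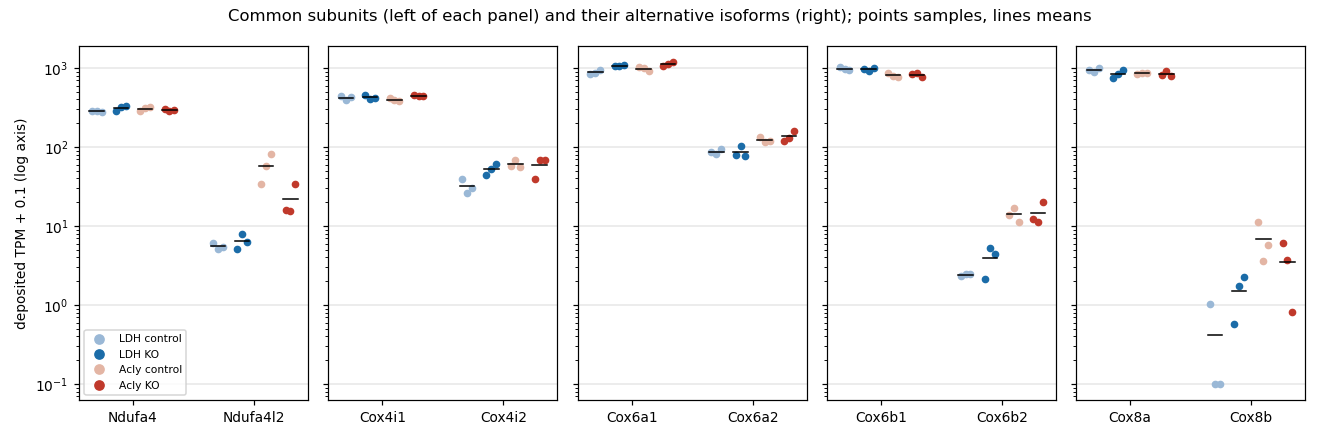
Deposited TPM plus 0.1 on a log axis (y) for common subunits and their alternative isoforms (x), with 1 point per sample, the group mean as a line and colours for the 4 groups. Common forms sit within a narrow band in all groups. Ndufa4l2 and Cox6b2 are higher in every Acly library than in any LDH library. Ndufa4l2 is at 57.6 ± 23.5 TPM in Acly controls and 5.49 ± 0.512 in LDH controls. Cox8b overlaps between the sets, with Acly knockout replicate 3 at 0.71 TPM and LDH knockout replicate 3 at 2.16.

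Per length, the alternative isoforms kept the same order of means in every group, as the plot of isoform levels shows. Cox6a2 was the most abundant of the alternative forms, at 123.6 ± 10.3 TPM (SD, n = 3) in Acly controls and 87.4 ± 5.60 in LDH controls, and made up 11.3% and 9.06% of the Cox6a1 and Cox6a2 sum. Cox4i2 made up 13.2% ± 1.55 of the Cox4 sum in Acly controls and 7.01% ± 1.11 in LDH controls. Cox6b2 held 1.69% and 0.236% of its pair, and Cox8b 0.794% and 0.0333%. Neighbours in this order overlapped in places: in Acly controls Cox4i2 averaged 60.5 ± 7.35 TPM and Ndufa4l2 57.6 ± 23.5.

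Of the chondrocyte markers, 7 of 9 were called higher in Acly than in LDH controls and 1 lower. Their sum, most of which is Col2a1, was 8637 to 9431 CPM in Acly controls against 10890 to 12630 in LDH controls. Markers of most other cell types were also higher in Acly controls. All 16 skeletal muscle markers were called higher in Acly controls, with summed levels of 413.6 to 540.6 CPM against 37.2 to 66.5 in LDH controls, and Myod1 and Myog were detected in every library. Endothelial markers, 5 of 5 called higher, summed to 75.1 to 89.9 against 9.28 to 14.6 CPM, and fat markers to 26.2 to 57.5 against 9.77 to 10.7, with Ucp1 at 0 to 3 counts. A pericyte list added after values were seen had 4 of 7 tested genes called higher and summed to 651.8 to 707.6 against 589.1 to 640.5 CPM. Most of that sum is Cspg4 and Pdgfrb, whereas Abcc9 was 12.8 to 18.1 against 0.369 to 0.604 CPM, Kcnj8 4.77 to 5.32 against 0.147 to 0.284 and Rgs5 4.50 to 5.81 against 0.479 to 0.612. Fibroblast markers, 6 of 6 called higher, summed to 3984 to 4738 against 563.6 to 1121 CPM. Bone-forming markers (4 of 6 called higher) summed to 153.9 to 180.3 against 63.9 to 84.4 CPM, and red blood cell markers (4 of 5) to 90.9 to 131.4 against 29.2 to 44.6. Leukocyte markers went both ways, with 3 of 6 called higher and 2 lower, and their sums overlapped. Their part in the isoform levels was not tested.

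The other mitochondrial gene lists are given beside the shares called over all genes tested, which were 2.49% for LDH, 0.136% for Acly and, between controls, 29.4% higher and 25.7% lower. Of 45 assembly factor genes tested, which build the complexes, 0 rose and 1 fell in LDH knockouts and 0 passed in Acly knockouts, with medians of 0.01 and 0.08. Between controls, 1 was higher and 18 lower (median -0.19). Of 78 mitochondrial ribosomal protein genes, 0 rose and 1 fell with LDH deletion and 0 passed with Acly deletion (medians 0.05 and 0.13), and 3 were higher and 36 lower between controls. Electron carrier and exchange genes, such as cytochrome c and the adenine nucleotide carriers, numbered 20, with 0 called in either knockout and 8 lower between controls. Of 14 regulators of mitochondrial biogenesis, among them Nrf1, Tfam and Ppargc1a, 0 passed in either knockout, and 2 were higher and 6 lower between controls.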

How the data were processed

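The members and gene lists were chosen with earlier results of these data known. The deposited table has 51 columns. Per the file headers it gives counts, FPKM and TPM per gene and sample; between 7.32% and 8.16% of a sample's deposited values are not whole, so the authors' counts are estimated counts, and they were rounded here. The deposited FPKM served an alternative test, and the TPM deposited by the authors gave levels per length. Per the submitters' processing notes, HISAT2 2.0.4 and mm9 were used, with no role stated. The counting program, the annotation and the use of strand are not given in the sources used here. Ndufb4 and Ndufb4c, near-identical copies, had non-whole counts in most libraries, and 16 of 82 members overlap another gene of the table, so their values are uncertain.

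Each knockout was compared with its controls in edgeR 4.0.16 (R 4.3.3) with TMM scaling, filterByExpr, two-sided quasi-likelihood F tests and Benjamini-Hochberg adjustment over all genes tested, at a threshold of 0.05. The difference of effects and the controls came from a fit of all 12 samples. Standard errors were derived from the fold change and its F statistic. Levels are CPM scaled within a comparison. Effective length came from the deposited counts and FPKM, and GC content from the longest coding GENCODE vM21 transcript. The edgeR scripts were tested on simulated data and recovered the size of planted changes. Those changes were larger than the values of most members here. The test therefore does not show that changes of the members' size would be called. Alternatives were DESeq2 1.42.0, limma 3.58.1 on log2(FPKM + 0.1) and log2(FPKM + 1), other scalings, no filter, GC and length offsets (mgcv 1.9.3), a replicate block, a Y-linked covariate and leaving out each sample. Named genes were those with the lowest p in each complex and knockout comparison, fixed isoform and catalytic lists, the largest called differences between controls and the highest and lowest TPM per complex. Cox7a1 and Ndufa11b are named as the genes left out, Ndufa10 as called by an alternative, and Ndufb4 and Ndufb4c for their counting. No source says whether replicates are separate animals, so p-values measure the spread between these samples. The floor of 3 counts covers counting error only.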

Additional observations from a re-analysis of the deposited data

How the results depend on the processing

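The number of members called in the LDH comparison was 0, and became 4 with DESeq2, 1 without the filter, 1 with GC and length offsets and 0 to 3 when single samples were left out (3 without LDH knockout replicate 3). Its median, 0.05, was -0.14 with the Y-linked covariate, which largely coincides with the deletion, and 0.023 with GC and length offsets. In the Acly comparison 0 members were called, 1 with DESeq2 and 1 (Ndufa4l2, adjusted p = 0.0383, range over alternatives 0.0383 to 0.674) with the replicate block. The Acly median, 0.15, was 0.053 with GC and length offsets and 0.0497 with these and the replicate block. Between controls 39 members were called, 25 to 39 with single samples left out (25 without Acly control replicate 3), and the median, -0.17, was 0.0084 with total counts, 0.0087 on log2(FPKM + 0.1) and 0.0086 on log2(FPKM + 1). With GC and length offsets that median was -0.11, with 12 members called higher and 32 lower (4529 and 4067 of 14251 over all genes). The cause of these changes was not tested. The count of 0 for the difference of effects held under all alternatives run. Same-numbered knockout and control samples did not deviate together (r from -0.22 to 0.05, and from -0.17 to 0.29 for different numbers). These values cannot show whether the numbers pair the samples. Over all genes, LDH calls went from 332 to 901 with DESeq2, 2 with the Y-linked covariate and 95 to 1068 with single samples left out. Acly calls went from 19 (8 higher) to 247 with DESeq2, 11 (3 higher) with total counts, 19 (6 higher) on log2(FPKM + 0.1), 32 without the filter, 8 and 0 with the block without and with offsets, 6 with the covariate, 31 in the fit of 12 samples and 0 to 132 with single samples left out. Difference calls went from 23 to 213, 50 with offsets, 5 and 4 with the block, 3 with the covariate and 5 to 143. For single named genes under single settings, 0 called values changed sign; between controls 43 such values lost the call and 27 gained it, and 2 in the Acly and 8 in the LDH comparison gained it. With 3 samples per group the members' median 95% interval reached 0.20 (LDH) and 0.24 (Acly) either way on the log2 scale, which limits what could be detected.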
